A study of Mus musculus with 6 samples.

Results

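The genes described here are 38 genes of the amino acid response: 20 cytosolic aminoacyl-tRNA synthetases, the transcription factor ATF4 with its partner gene Ddit3, and 16 genes for stress feedback, amino acid synthesis, one-carbon metabolism and amino acid transport. They were chosen by gene symbol, and all 38 have a row in the deposited table of 23412 rows. All 38 passed the filter on low counts, so 38 of the 18767 genes tested are members. Their counts per library ran from 29 to 6439.

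Aminoacyl-tRNA synthetases attach each amino acid to its transfer RNA and so feed the ribosome. When amino acids run short or the endoplasmic reticulum is stressed, kinases phosphorylate the initiation factor eIF2, which slows general translation and raises translation of the Atf4 message. ATF4 then binds C/EBP-ATF response elements and switches on genes that make, import and charge amino acids. Dividing germinal centre B cells build protein quickly and draw heavily on these pathways.

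RNA was measured in sorted splenic B cells positive for B220, GL7 and Fas, taken 10 days after intraperitoneal immunization of mice with sheep red blood cells. DAF-TM mice were Cg1-cre(+/-);R26-DAF-TM(fl/fl), and control mice were Cg1-cre(+/-), written with DAF-Tg(+/+) in the treatment protocol, so both groups carried Cg1-cre. Cg1-cre drives Cre recombinase from the immunoglobulin gamma 1 locus in germinal centre B cells, and the share of sorted cells in which it acted is not stated. DAF is decay accelerating factor, a membrane inhibitor of complement whose mouse gene is Cd55, and R26 is the Rosa26 locus. The sources used here do not give strain background, age, sex or the number of mice per library, so p-values measure the spread between libraries, which may be technical. The labels list 3 replicates per group, but DAF-TM replicates 2 and 3 had identical columns, with 0 of 23412 rows differing. They were counted once, as DAF-TM library 2. The comparison therefore set 2 DAF-TM libraries against 3 Cg1-cre libraries.

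Total counts ran from 10684753 to 11280400 in DAF-TM libraries and from 7257339 to 12783965 in Cg1-cre libraries. Cd55 stood at 712 and 725 CPM (counts scaled to the library total and the TMM factor) in DAF-TM libraries, against 23.4 to 34.3 CPM in Cg1-cre libraries, which fits the labels. Libraries of a group differed in sex-linked genes: Xist, the silencing RNA of the inactive X, was at 296 and 719 CPM in DAF-TM libraries 1 and 2, against 758, 2.63 and 2.86 CPM in Cg1-cre libraries 1 to 3. The Y-linked gene Ddx3y was at 141 and 0 CPM in DAF-TM libraries 1 and 2, against 0, 339 and 225 CPM in Cg1-cre libraries 1 to 3. Only DAF-TM library 1 was high in both Xist and Ddx3y, so it stands apart, and results are given without it where they change. Of the germinal centre B cell markers 0 of 12 passed at an edgeR adjusted p under 0.05. Bcl6 stood at 214 and 238 CPM in DAF-TM libraries, against 286, 278 and 312 CPM in Cg1-cre libraries. The median log2 fold change of the 12 markers was -0.18, with 11 of 12 values negative. At an unadjusted p under 0.05 (edgeR), 3 were lower and 0 higher, where 2.06% of all genes were lower and 3.68% higher. For 5 of 12 both DAF-TM libraries lay below every control, where 9.02% of all genes did. Of markers of other cells, 6 of 8 natural killer cell, 4 of 10 macrophage, 2 of 9 T cell and 1 of 7 dendritic cell genes passed as higher after adjustment. So did 1 of 10 plasma cell genes, where 0.373% of all genes did. Of 7 neutrophil genes 0 passed, with a median log2 fold change of -1.76 for the list. No marker with a row in the table was at 0 counts in any library.

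The binding element that ATF4 shares with its C/EBP partners, searched as TGATGNAA on both strands, is shown first because it marks which members carry the pathway's own sequence near their start. RefSeq promoter windows (GRCm38.p6, 250 bases before to 50 after the annotated start) were matched for 29 of the 38 members. Cars, Hars, Lars, Nars, Rars, Vars, Wars, Slc7a5 and Slc1a5 had no window. Of the 29 members 9 held the element (31%), against 4.51% of all 27025 genes in the table and 3.97% of its 32851 windows, since some genes have more than 1 window. It was found in 5 of 13 synthetases and in 4 of 16 other members. With the stricter spelling TGATGCAA, 6 of 29 members (20.7%) held it, against 1.03% of all genes and 0.895% of all windows. A match describes letters only and shows neither binding nor activity in these cells. Of 11 sites found, 9 are shown, each read 5′ to 3′ on the strand on which the element reads TGATG, with the 8 matching letters in capitals.
Gars (chr6:55037960-55037989, minus strand): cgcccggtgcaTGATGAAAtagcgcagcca
Iars (chr13:49682126-49682155, minus strand): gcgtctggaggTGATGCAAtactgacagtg
Tars (chr15:11399655-11399684, plus strand): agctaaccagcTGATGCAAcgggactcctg
Yars (chr4:129189895-129189924, plus strand): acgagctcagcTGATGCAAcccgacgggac
Trib3 (chr2:152344028-152344057, plus strand): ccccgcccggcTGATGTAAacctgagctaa
Chac1 (chr2:119351038-119351067, minus strand): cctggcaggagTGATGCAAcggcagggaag
Asns (chr6:7693214-7693243, minus strand): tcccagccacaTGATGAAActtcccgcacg
Slc7a11 (chr3:50443661-50443690, minus strand): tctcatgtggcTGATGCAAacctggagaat
Slc7a11 (chr3:50443642-50443671, plus strand): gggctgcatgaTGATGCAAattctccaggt

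Of the 11 sites 7 began before the annotated start and 4 after it, and 3 lay on the gene's own strand. The whole windows of Asns, the asparagine synthetase gene whose element is the classical nutrient-sensing site, and of Slc7a11, which holds 2 elements facing each other, are shown because they place the element within a promoter. Both are printed on the strand of the gene, with matches in capitals.
Asns (chr6:7693160-7693459, minus strand): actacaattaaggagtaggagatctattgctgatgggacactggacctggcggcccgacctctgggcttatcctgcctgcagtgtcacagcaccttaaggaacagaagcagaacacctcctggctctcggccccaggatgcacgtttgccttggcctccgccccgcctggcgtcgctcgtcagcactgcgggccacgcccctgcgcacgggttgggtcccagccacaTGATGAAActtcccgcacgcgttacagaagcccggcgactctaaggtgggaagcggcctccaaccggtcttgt
Slc7a11 (chr3:50443564-50443863, minus strand): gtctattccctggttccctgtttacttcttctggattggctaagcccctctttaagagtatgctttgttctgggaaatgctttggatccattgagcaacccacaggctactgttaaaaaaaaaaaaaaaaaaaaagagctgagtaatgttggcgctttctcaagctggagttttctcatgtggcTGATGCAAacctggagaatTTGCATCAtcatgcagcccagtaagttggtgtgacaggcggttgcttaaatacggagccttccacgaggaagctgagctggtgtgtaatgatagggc
The 9 members with the element had a median log2 fold change of 0.06 between DAF-TM and Cg1-cre cells, and the 20 with a window but no element had a median of -0.01. These are descriptions of subsets picked by sequence, and no test was made.

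None of the 38 members passed the test in DAF-TM cells compared with Cg1-cre cells. At an edgeR quasi-likelihood adjusted p under 0.05, 0 members rose and 0 fell, where 0.41% of all genes tested were called, 0.373% as higher in DAF-TM cells and 0.0373% as lower. DESeq2 and limma-voom also called 0 members. At an unadjusted p under 0.05, 0 members were higher and 1, Dars, was lower, where 5.74% of all genes passed, 3.68% as higher and 2.06% as lower. The median log2 fold change of the members was 0.03, against 0.03 over all genes tested. Over the 11721 genes with a mean level at least that of the least abundant member, 4.14 CPM, it was -0.04. Of the members, 23 of 38 (60.5%) had positive values, against 53.9% of all genes. The members' median and share of positive values turned on single libraries. Without DAF-TM library 1 the members' median was -0.14, against 0.05 over all genes, and 8 of 38 were positive. Without DAF-TM library 2 it was 0.11, against -0.02 over all genes, and 29 of 38 were positive. No median over genes of like level is given for these fits. Of the 3338 genes with a mean of at least 78.6 CPM, 86.5% were higher in DAF-TM library 1 than in library 2. Over all genes tested the share was 47.9%. In these bulk samples a change in the share of cells and a change in RNA per cell cannot be told apart.

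The intervals bound how large a difference could be. Of the 38 members, 37 had a 95% interval of the fold change that lay within 2-fold in either direction, and 30 had one within 1.5-fold. The exception at 2-fold was Slc7a11, with an interval of 0.83 to 2.35 fold. Among the 20 synthetases, 19 had intervals within 1.5-fold, and the exception was Dars, at 0.573 to 0.905 fold. The spread behind these intervals was borrowed mainly from all genes (1139 prior degrees of freedom at the median gene and 3 residual), so they would be too narrow for a gene that varies more than others of its level.

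The groups of libraries did not overlap for 8 of 38 members (21.1%), where 20.3% of all genes showed no overlap, 11.3% with DAF-TM above and 9.02% with DAF-TM below. Ddit3, Ddit4, Sesn2 and Chac1 stood above every Cg1-cre library in both DAF-TM libraries, and Dars, Psat1, Psph and Bcat1 stood below. The share of members was near the background, so it is no result about the members. Members varied little among the controls, with a median coefficient of variation of 7.93% over 3 Cg1-cre libraries, against 16.9% over all genes tested, most of which are less abundant.

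**Figure D1:**
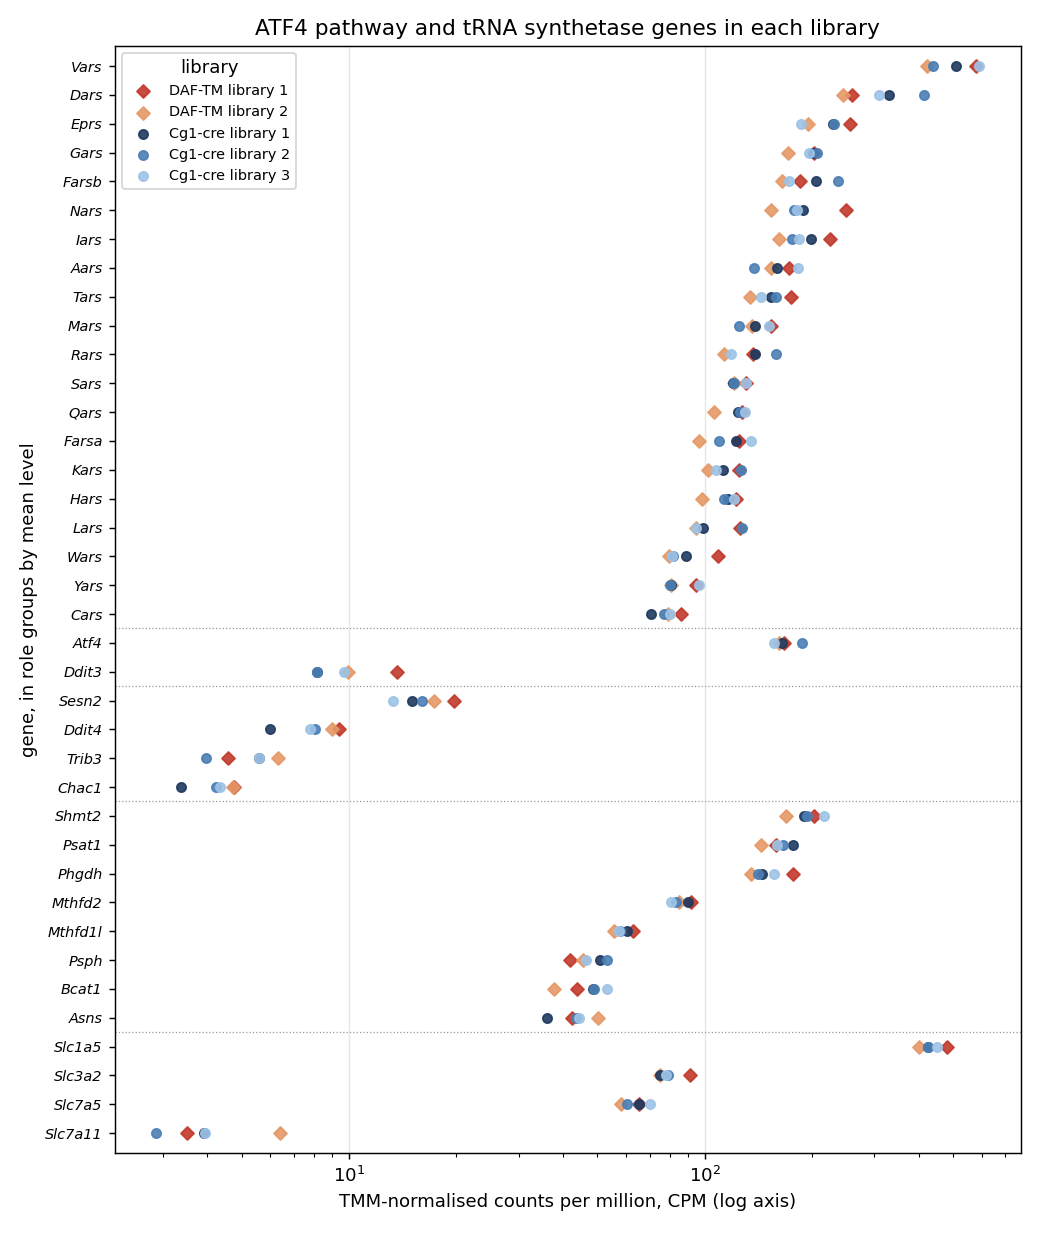
Level of each of the 38 members in every library, as TMM-normalised CPM on a log axis, with genes in role groups and ordered by mean level. Diamonds are the 2 DAF-TM libraries and circles the 3 Cg1-cre libraries. For 30 of the 38 genes the ranges of the diamonds and circles overlap.

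The synthetases formed an abundant and even group. Divided by the longest coding length in GENCODE M21, their mean levels over the 5 libraries ran from 30.6 CPM per kilobase for Lars, the leucyl enzyme, to 207 for Dars, the aspartyl enzyme, with a median of 64.3. Of the 20, 16 lay within 2-fold of that median. Vars, the valyl enzyme, at 133, and Nars, the asparaginyl enzyme, at 113 CPM per kilobase, followed Dars. The order depends on the length used: per kilobase of all annotated exons, Vars (90.6), Farsb (73.7) and Dars (71.4) led. Farsa and Farsb, which encode the alpha and beta subunits of the phenylalanyl enzyme, stood at 77.3 and 109 CPM per kilobase of coding length.

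Dars was the member with the lowest p. It stood at 260.1 and 244 CPM in DAF-TM libraries 1 and 2, against 329, 413 and 308 CPM in Cg1-cre libraries 1 to 3. Both DAF-TM libraries were therefore below all 3 Cg1-cre libraries, with Cg1-cre library 2 the highest. The difference did not pass after adjustment (log2 fold change -0.47 ± 0.17 SE, adjusted p = 0.426 by edgeR), and Dars had rank 214 by p among all genes tested. Its log2 fold change ran from -0.54 without Cg1-cre library 3 to -0.34 without Cg1-cre library 2, and was -0.53 without DAF-TM library 1.

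Farsb had the next lowest p among the synthetases. Its level was 185 and 165 CPM in DAF-TM libraries 1 and 2, against 206, 238 and 172 CPM in Cg1-cre libraries 1 to 3. DAF-TM library 1 lay inside the range of the controls and DAF-TM library 2 below it, and the gene did not pass (log2 fold change -0.23 ± 0.17 SE, adjusted p = 0.945 by edgeR). Vars, the most abundant synthetase by CPM, stood at 579.8 and 422 CPM in DAF-TM libraries 1 and 2, against 509, 439 and 591 CPM in Cg1-cre libraries 1 to 3. Both groups spanned nearly the same range, and its log2 fold change was -0.03. The other 17 synthetases had log2 fold changes between -0.15 (Rars, the arginyl enzyme) and 0.17 (Wars, the tryptophanyl enzyme). Wars is also known as an interferon-induced gene, and it stood at 109 and 79.4 CPM in DAF-TM libraries, against 88.7, 81.2 and 81.0 in Cg1-cre libraries (adjusted p = 0.949, edgeR).

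Dars, Eprs, Iars, Kars, Lars, Mars, Qars and Rars encode enzymes of the multi-synthetase complex, in which several synthetases travel with scaffold proteins. This subset was named after the values were seen. Its median log2 fold change was 0.01, against 0.02 for the other 12 synthetases. The lowest of the subset was Dars, at -0.47, and the highest was Eprs, the fused glutamyl and prolyl enzyme, at 0.07. Eprs stood at 257 and 195 CPM in DAF-TM libraries, against 229.7, 231 and 186 in Cg1-cre libraries. Mars overlaps Ddit3 by 71 bases on chromosome 10 (127296221 to 127296291, GRCm38), with the genes on opposite strands, and the strand setting of the counting is not given, so reads from that stretch cannot be told apart.

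**Figure D2:**
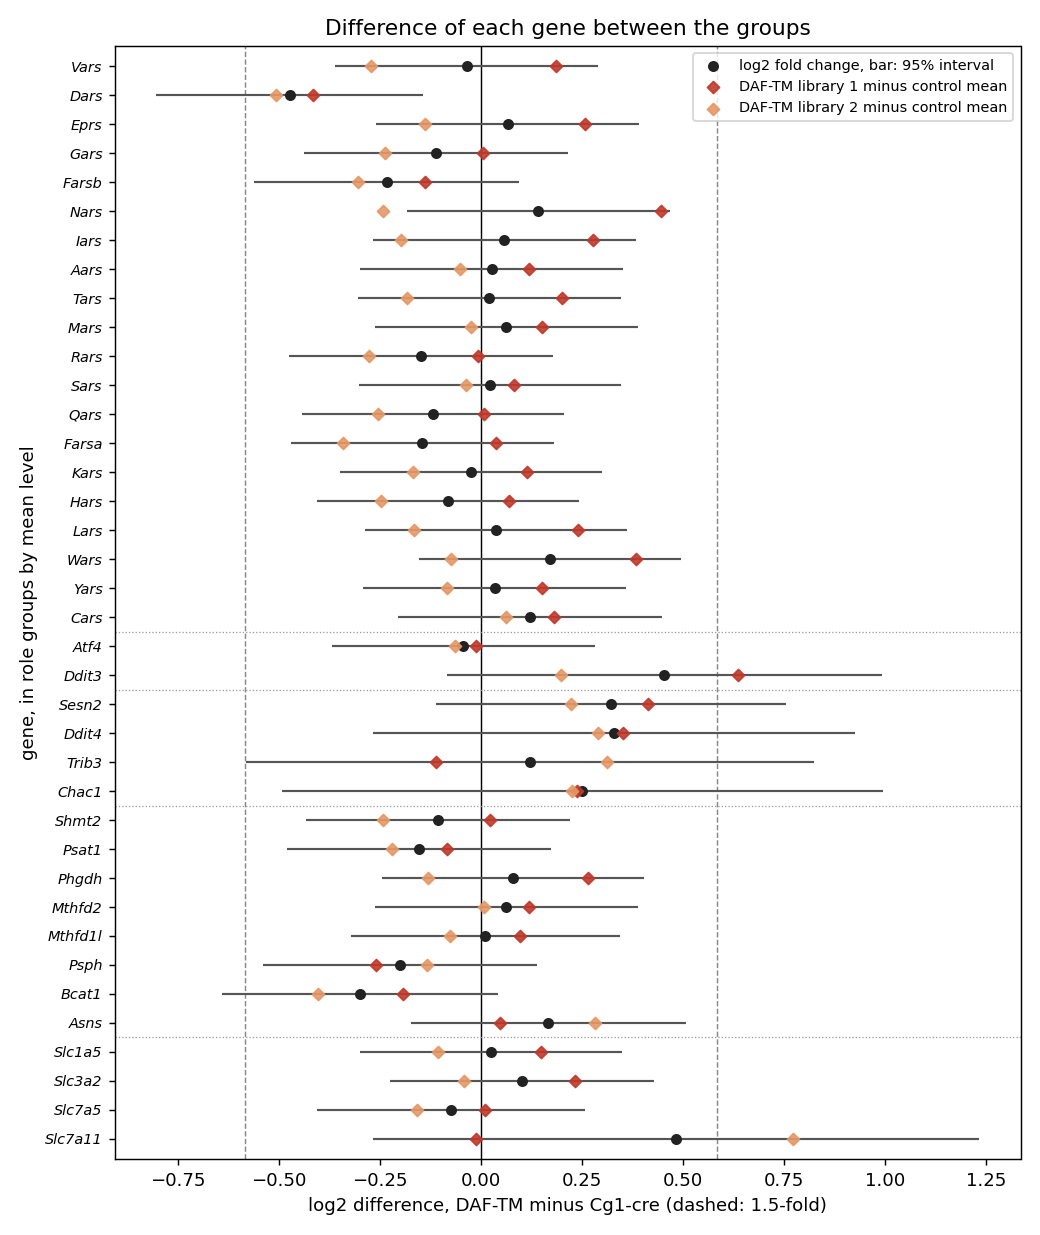
Log2 fold change of each member between DAF-TM and Cg1-cre cells (black circles, with 95% intervals from edgeR), and the log2 level of each DAF-TM library minus the mean of the 3 Cg1-cre libraries (diamonds, CPM plus a pseudocount of 0.5). Dashed lines mark 1.5-fold. The black circles lie between -0.47 (Dars) and 0.48 (Slc7a11), and for most synthetases the 2 DAF-TM libraries fall on opposite sides of 0.

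Between the DAF-TM libraries the synthetases differed together. With TMM scaling all 20 were higher in DAF-TM library 1 than in DAF-TM library 2, by a median of 0.28 on the log2 scale. In DAF-TM library 1, 17 of 20 stood above the control mean and 9 above every control. In DAF-TM library 2, 1 of 20 stood above the control mean and 13 stood below every control. The count of 13 was 16 with RLE factors, 3 with upper-quartile factors and 2 with library size alone. The count of 9 was 9, 8 and 9 with these scalings. The matching shares over all genes are not given here. Summed over the 20 genes with TMM scaling, the level was 3641 and 2905 CPM in DAF-TM libraries 1 and 2, against 3387, 3424 and 3393 CPM in Cg1-cre libraries 1 to 3. The DAF-TM libraries thus lay on either side of a tight set of controls, and their mean of 3273 ± 521 CPM (SD, n = 2) was close to 3401 ± 19.8 CPM in Cg1-cre libraries (SD, n = 3).

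This block difference was not particular to the synthetases. Of the 3338 genes with a mean of at least 78.6 CPM, the level of the lowest synthetase, 86.5% were higher in DAF-TM library 1 than in library 2, by a median of 0.20, while over all genes tested the share was 47.9%. It also depended on the scaling. With upper-quartile factors 14 of 20 synthetases, and with library size alone 16 of 20, were higher in DAF-TM library 1, by medians of 0.10 and 0.11, and with RLE factors all 20 were, by 0.32. The most distant gene was Nars, at 249 and 154 CPM in DAF-TM libraries 1 and 2, against 188, 178 and 181 CPM in Cg1-cre libraries 1 to 3. Its log2 fold change was 0.45 without DAF-TM library 2 and -0.25 without DAF-TM library 1, against 0.14 with both, and it did not pass in any of these fits.

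Markers of plasma cells, which secrete much protein, differed between the same libraries. Of 10 plasma cell genes, 9 stood above the control mean in DAF-TM library 1 and 2 in DAF-TM library 2. The list's median log2 level minus the control mean was 0.68 and -0.25 in DAF-TM libraries 1 and 2. Over all genes tested it was -0.0014 and 0.05. The matching shares over all genes, or over genes of like level, are not given here. Prdm1, the regulator of plasma cell fate, stood at 37.9 and 22.5 CPM in DAF-TM libraries 1 and 2, against 14.8, 18.5 and 18.4 CPM in Cg1-cre libraries 1 to 3 (adjusted p = 0.0147, edgeR). Summed over the list, which is dominated by Igj, the joining chain of antibody, the level was 5441 and 3907 CPM in DAF-TM libraries, against 4053, 6262 and 4997 CPM in Cg1-cre libraries. The part of such cells in the synthetase values was not tested.

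**Figure D3:**
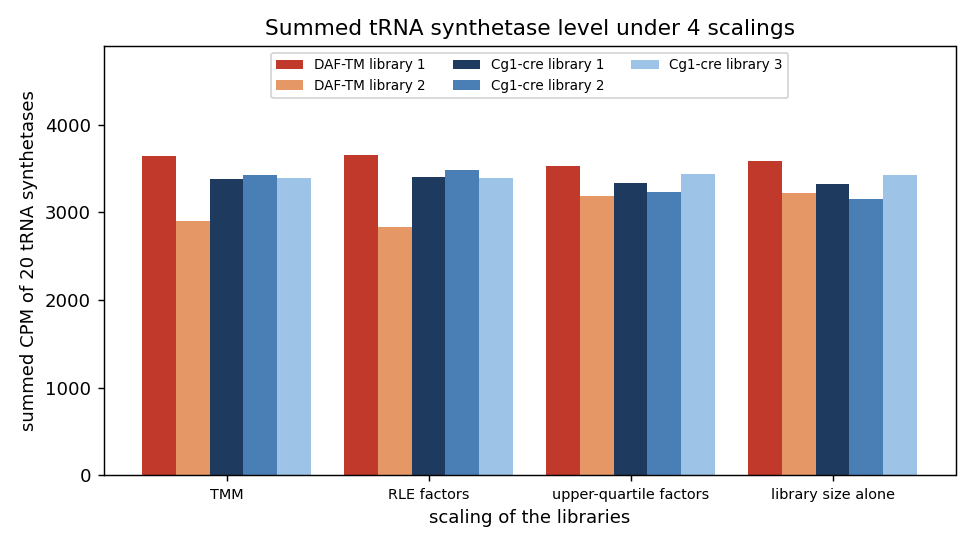
Summed CPM of the 20 synthetases in each library under 4 ways of scaling the libraries. Bars start at 0. DAF-TM library 1 is the highest in all 4, and DAF-TM library 2 is below every Cg1-cre library with TMM, RLE and upper-quartile factors but above Cg1-cre library 2 with library size alone, at 3220 against 3158 CPM.

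Atf4 itself did not pass the test. It stood at 168 and 162 CPM in DAF-TM libraries 1 and 2, against 165, 188 and 156 CPM in Cg1-cre libraries 1 to 3. Both DAF-TM libraries lay within the range of the controls (log2 fold change -0.04 ± 0.17 SE, adjusted p = 0.985 by edgeR), with an interval of 0.774 to 1.22 fold. At 160.1 CPM per kilobase of coding length it was the third most abundant member by that measure. Because ATF4 is controlled mainly at translation, the level of its message does not report the level of the protein.

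Ddit3 encodes CHOP, a bZIP partner induced downstream of ATF4 under lasting stress. Its level was 13.7 and 9.96 CPM in DAF-TM libraries 1 and 2, against 8.14, 8.14 and 9.67 CPM in Cg1-cre libraries 1 to 3, from 152 and 118 reads against 77, 96 and 71. Both DAF-TM libraries lay above the controls, library 2 by a small margin. The difference did not pass (log2 fold change 0.45 ± 0.27 SE, adjusted p = 0.935 by edgeR), with an interval of 0.943 to 1.99 fold. It was 0.20 on the log2 scale when DAF-TM library 1 was left out and 0.67 when DAF-TM library 2 was.

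The 4 stress and feedback genes were low, and none passed. Sesn2, sestrin 2, a leucine sensor that restrains mTORC1, stood at 19.8 and 17.3 CPM in DAF-TM libraries 1 and 2, against 15.0, 16.0 and 13.3 CPM in Cg1-cre libraries 1 to 3. Both DAF-TM libraries lay above the controls (log2 fold change 0.32 ± 0.22 SE, adjusted p = 0.945 by edgeR). Ddit4, known as REDD1 and also a brake on mTORC1, stood at 9.36 and 8.95 CPM in DAF-TM libraries 1 and 2, against 6.03, 8.06 and 7.76 CPM in Cg1-cre libraries 1 to 3. Again the DAF-TM libraries lay above the controls, Cg1-cre library 1 being the lowest (log2 fold change 0.33 ± 0.30 SE, adjusted p = 0.949 by edgeR). Chac1, which degrades glutathione, stood at 4.77 and 4.73 CPM in DAF-TM libraries 1 and 2, against 3.38, 4.24 and 4.36 CPM in Cg1-cre libraries 1 to 3. The groups were separate by less than the spread among the controls (log2 fold change 0.25 ± 0.38 SE, adjusted p = 0.965 by edgeR).

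Trib3, a pseudokinase that feeds back on ATF4, stood at 4.59 and 6.33 CPM in DAF-TM libraries 1 and 2, against 5.61, 3.99 and 5.58 CPM in Cg1-cre libraries 1 to 3. DAF-TM library 1 lay among the controls and DAF-TM library 2 above them (log2 fold change 0.12 ± 0.36 SE, adjusted p = 0.983 by edgeR). The log2 fold change of Trib3 was negative, at -0.13, without DAF-TM library 2. All 4 genes had positive log2 fold changes, with a median of 0.29. Their sum was 38.5 and 37.3 CPM in DAF-TM libraries 1 and 2, against 30.0, 32.3 and 31.1 CPM in Cg1-cre libraries 1 to 3. The sums of the groups did not overlap with any of the 4 scalings, which all rest on the same libraries. The ratio of means was 1.22 with TMM. Ddit4, Sesn2 and Chac1, whose own groups did not overlap, are part of the sum. How often sums of other low genes separate is not given. No test was made of this sum, since the members were chosen with results known, and it rests on genes with 32 to 220 reads per library. Of the markers of other cells, the 8 natural killer genes summed to 93.6 and 56.4 CPM in DAF-TM libraries, against 18.1, 25.2 and 33.9 CPM in Cg1-cre libraries. The macrophage sums of the groups overlapped, with 10 genes at 157 and 100.2 CPM in DAF-TM libraries, against 140, 84.5 and 111 CPM in Cg1-cre libraries. Gene by gene the list was higher, with 9 of 10 log2 fold changes positive, 1 negative and a median of 1.02. For 7 of the 10 both DAF-TM libraries stood above every control, where 11.3% of all genes did. The T cell sum, mostly Lck, was 267 and 269 CPM in DAF-TM libraries, against 278, 306 and 282 CPM in Cg1-cre libraries. Lck had at least 1849 reads in every library. Of the 9 T cell genes, 8 had positive log2 fold changes and 1 negative, with a median of 0.94. For 6 of them both DAF-TM libraries stood above every control and for 1 below, where 11.3% and 9.02% of all genes did. The neutrophil sum was 21.3 and 55.5 CPM in DAF-TM libraries, against 80.6, 74.4 and 248 CPM in Cg1-cre libraries. The part of these cell types in the stress gene values was not tested.

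**Figure D4:**
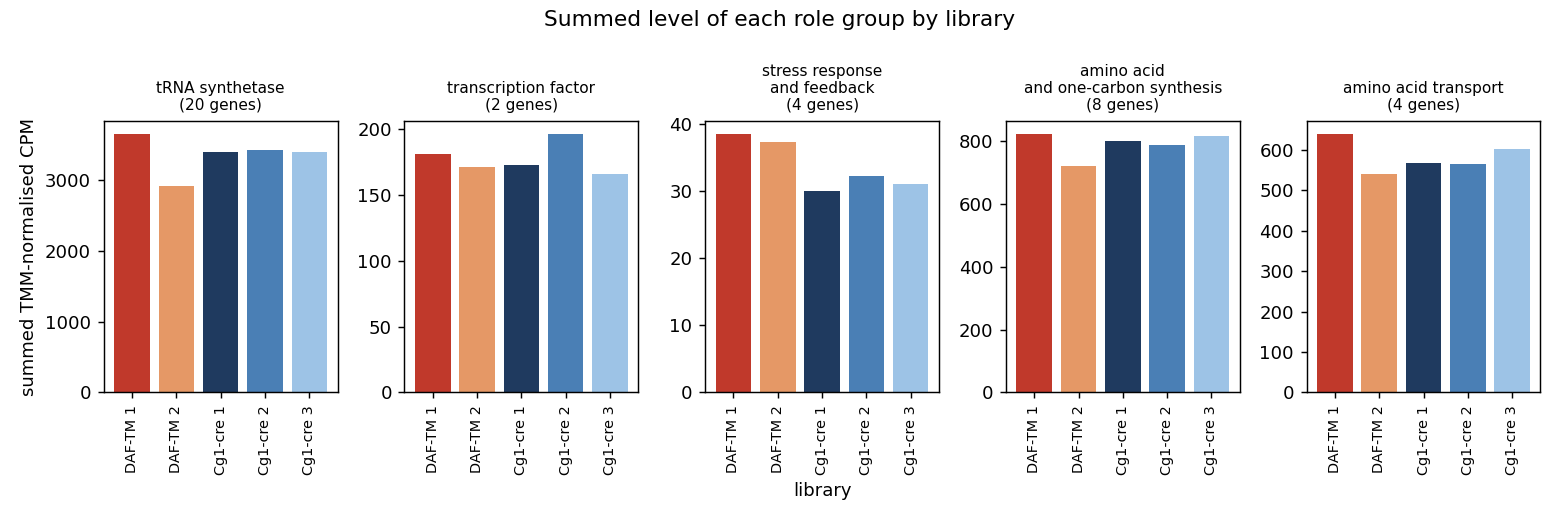
Summed TMM-normalised CPM of the members in each role group, by library, with axes from 0. In the stress response and feedback group the DAF-TM libraries, at 38.5 and 37.3, stand above the controls, at 30.0 to 32.3, and in the other 4 groups the libraries of the 2 genotypes overlap.

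The 8 enzymes of amino acid and one-carbon synthesis were close to the controls. Asns, which makes asparagine and is a standard reporter of ATF4 activity, stood at 42.5 and 50.2 CPM in DAF-TM libraries 1 and 2, against 36.2, 43.5 and 44.3 CPM in Cg1-cre libraries 1 to 3. The groups overlapped (log2 fold change 0.17 ± 0.17 SE, adjusted p = 0.949 by edgeR). Bcat1, the cytosolic branched-chain aminotransferase, had the lowest p of the group, at 43.8 and 37.7 CPM in DAF-TM libraries 1 and 2, against 48.5, 48.8 and 53.1 CPM in Cg1-cre libraries 1 to 3. Both DAF-TM libraries lay below the controls, and the gene did not pass (log2 fold change -0.30 ± 0.17 SE, adjusted p = 0.92 by edgeR), with an interval of 0.641 to 1.03 fold.

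Phgdh, Psat1 and Psph encode the successive enzymes of serine synthesis. Psph stood at 41.8 and 45.6 CPM in DAF-TM libraries 1 and 2, against 50.9, 53.3 and 46.4 CPM in Cg1-cre libraries 1 to 3. The DAF-TM libraries were lower by a small margin (log2 fold change -0.20 ± 0.17 SE, adjusted p = 0.949 by edgeR). Psat1 was also below the controls in both DAF-TM libraries, at 158 and 144 CPM in DAF-TM libraries, against 177, 167 and 160.0 in Cg1-cre libraries (log2 fold change -0.15). Phgdh, the first enzyme, had a log2 fold change of 0.08, and its groups overlapped.

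Shmt2, Mthfd2 and Mthfd1l carry serine carbon through the mitochondrial folate pathway. Shmt2, the most abundant enzyme of the group by CPM, stood at 203 and 169 CPM in DAF-TM libraries 1 and 2, against 190.3, 193 and 217 CPM in Cg1-cre libraries 1 to 3. DAF-TM library 1 lay within the controls and DAF-TM library 2 below them (log2 fold change -0.11 ± 0.17 SE, adjusted p = 0.965 by edgeR). Mthfd2 and Mthfd1l had log2 fold changes of 0.06 and 0.01. The sum of the 8 enzymes was 821 and 721 CPM in DAF-TM libraries, against 799, 788 and 815 CPM in Cg1-cre libraries.

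The transporters spanned the widest range of levels. Slc1a5, the glutamine carrier ASCT2, was the most abundant member per kilobase by either length, and stood at 479 and 401 CPM in DAF-TM libraries 1 and 2, against 423, 423 and 450.4 CPM in Cg1-cre libraries 1 to 3. The groups overlapped (log2 fold change 0.03 ± 0.17 SE, adjusted p = 0.99 by edgeR). Slc3a2 and Slc7a5 encode the heavy and light chains of the large neutral amino acid transporter, at 46.9 and 41.6 CPM per kilobase of coding length. Slc3a2 stood at 90.9 and 74.9 CPM in DAF-TM libraries 1 and 2, against 74.8, 79.1 and 77.8 CPM in Cg1-cre libraries 1 to 3. DAF-TM library 1 was the highest and DAF-TM library 2 lay beside the controls (log2 fold change 0.10 ± 0.17 SE, adjusted p = 0.967 by edgeR). Slc7a5 had a log2 fold change of -0.07.

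Slc7a11, the cystine-glutamate exchanger, was the least abundant member per kilobase, and stood at 3.51 and 6.42 CPM in DAF-TM libraries 1 and 2, against 3.91, 2.88 and 3.95 CPM in Cg1-cre libraries 1 to 3, from 39 and 76 reads against 37, 34 and 29. DAF-TM library 2 alone was high, and DAF-TM library 1 lay within the controls (log2 fold change 0.48 ± 0.38 SE, adjusted p = 0.947 by edgeR). Its log2 fold change was 0.85 without DAF-TM library 1 and -0.02 without DAF-TM library 2. The largest fold change of the 38 members therefore rests on DAF-TM library 2.

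Other genes of the pathway, in 7 lists written from textbook roles, showed 0 calls among 112 tested, with 2 higher and 1 lower at an unadjusted p under 0.05 (edgeR). Of 11 genes for the eIF2 kinases, their phosphatase subunits and eIF2, 0 were called (median log2 fold change -0.12). The lowest p were those of Eif2s1 (-0.24) and the kinase gene Eif2ak2 (-0.22). Of 18 further ATF4 partners and targets tested, 0 were called (median 0.10), led by the alanine transaminase gene Gpt2 (0.56) and Nfe2l2 (0.27), which encodes NRF2. Of 14 other transporters 0 were called (median 0.05), led by Slc7a3 (0.88) and Slc36a1 (0.46). Slc7a3 stood at 2.79 and 5.66 CPM in DAF-TM libraries, against 3.49, 2.20 and 1.09 in Cg1-cre libraries.

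Of 17 mitochondrial synthetases 0 were called (median -0.0022), led by Yars2 (-0.28) and Pars2 (0.32). Their summed level was mostly Lars2, which stood at 6632 and 3964 CPM in DAF-TM libraries, against 5026, 3767 and 6407 in Cg1-cre libraries. Of 9 complex scaffold and elongation factor genes 0 were called (median -0.13), led by Aimp2 (-0.27) and Eef1a1 (-0.16). Of 19 folate, glycine and branched-chain enzymes 0 were called (median -0.03), led by Bckdha (-0.29) and Glul (0.27). Of 24 genes that sense amino acids for mTORC1 0 were called (median -0.09). Rraga, a Rag GTPase, came closest of all these genes, at 102 and 115 CPM in DAF-TM libraries 1 and 2, against 132, 193 and 155 CPM in Cg1-cre libraries 1 to 3 (log2 fold change -0.56 ± 0.17 SE, adjusted p = 0.162 by edgeR), and Sesn1 had a log2 fold change of 0.36 (adjusted p = 0.833, edgeR).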

How the data were processed

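RNA was measured in 6 samples of sorted mouse germinal centre B cells, 3 labelled DAF-TM and 3 labelled Cg1-cre. An oligo-dT SMART-Seq v4 kit was used on 10 ng of RNA, without molecular identifiers, per the labels' protocols. HISAT2 and featureCounts are named in the submitters' processing notes, and mm10 is the build per the file headers. The annotation and the strand setting are not stated. The values are raw counts for each gene symbol, which the authors deposited without normalization. DAF-TM replicate 3 duplicated replicate 2 and was left out, so 5 libraries entered the main fit in place of 6.

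Counts were tested with edgeR 4.0.16 (R 4.3.3), using TMM scaling, the filterByExpr low-count filter and robust quasi-likelihood fits. The test was two-sided, and p-values were adjusted over 18767 genes by Benjamini-Hochberg, with 0.05 as threshold. The procedure was tested on simulated data in which genes varied independently. These data held no shift shared by many genes, unlike the DAF-TM libraries, so the test does not show what could be missed here. CPM values are scaled by library total and TMM factor. SE is the standard error of the log2 fold change, DAF-TM over Cg1-cre, and intervals are 95%. Alternatives were other scalings and filters, DESeq2 1.42.0, limma-voom (limma 3.58.1), a replicate block and leaving out each library. Lengths came from GENCODE M21 and positions and promoters from RefSeq, both on GRCm38, the build of the files. All 38 members were matched, 1 through an older symbol.

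The members and lists were chosen with earlier results of these data known. Values of every library are given for Atf4, Ddit3, Trib3, Chac1, Sesn2 and Asns, and in each role group for the 2 members of lowest p and the most abundant. In each other pathway list the 2 genes of lowest p are named. Further genes were named after their values were seen. Shared replicate numbers were not taken to pair the libraries, since no label ties them to a litter or day. Some promoter sites found by the search are not reported here.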

Additional observations from a re-analysis of the deposited data

How the results depend on the processing

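The call of 0 members higher and 0 lower was the same with every alternative run: RLE, upper-quartile and library-size scaling, no filter, at least 1 CPM in 3 libraries, DESeq2, limma-voom, the replicate block and leaving out each library (range 0 to 0). Over 494 refits of single members 0 passed. Library size alone moved the median of all genes to 0.13, against 0.03 with TMM, and the members' median to 0.12. Median log2 fold changes that moved by more than the spread between libraries with library size alone were those of stress and feedback genes (0.39), synthesis enzymes (0.05), transporters (0.16). Ratios of summed CPM did so for stress and feedback genes (1.28, upper-quartile factors), Atf4 and Ddit3 (1.07, library size alone), stress and feedback genes (1.31, library size alone), synthesis enzymes (1.03, library size alone). Leaving out 1 library gave medians for all members (-0.14 to 0.11), synthetases (-0.20 to 0.13), Atf4 and Ddit3 (0.062 to 0.32), synthesis enzymes (-0.14 to 0.030), transporters (-0.083 to 0.098), and ratios for all members (0.873 to 1.07), synthetases (0.85 to 1.07), synthesis enzymes (0.896 to 1.03), transporters (0.931 to 1.10), with an end of each range reached by leaving out a DAF-TM library. Members near 0 changed sign, none past the threshold: with RLE factors for Sars (-0.0028), Tars (-0.0040), Mthfd1l (-0.015); with upper-quartile factors for Kars (0.044), Vars (0.021), Atf4 (0.032); with library size alone for Hars (0.015), Kars (0.077), Vars (0.052), Atf4 (0.065), Slc7a5 (0.026); with DESeq2 for Sars (-0.0027), Tars (-0.0041), Mthfd1l (-0.015); with the replicate number as a block for Eprs (-0.043), Lars (-0.047), Tars (-0.029), Vars (0.065), Mthfd1l (-0.0060). With 1 library left out, members that changed sign at least once ran over these log2 ranges: Lars (-0.19 to 0.23), Yars (-0.095 to 0.15), Aars (-0.075 to 0.15), Kars (-0.18 to 0.11), Mars (-0.035 to 0.15), Atf4 (-0.082 to 0.034), Trib3 (-0.13 to 0.33), Mthfd1l (-0.086 to 0.096), Eprs (-0.15 to 0.25), Tars (-0.19 to 0.20), Vars (-0.29 to 0.18), Iars (-0.21 to 0.28), Nars (-0.25 to 0.45), Sars (-0.045 to 0.081), Wars (-0.083 to 0.38), Phgdh (-0.14 to 0.26), Mthfd2 (-0.0024 to 0.12), Slc3a2 (-0.051 to 0.23), Slc1a5 (-0.11 to 0.15), Farsa (-0.35 to 0.032), Gars (-0.25 to 0.0036), Hars (-0.26 to 0.068), Qars (-0.26 to 0.0058), Shmt2 (-0.25 to 0.019), Slc7a5 (-0.17 to 0.0080), Slc7a11 (-0.016 to 0.85). The replicate block called 61 of all genes, against 77 without it, and 0 members, with Dars at an adjusted p of 0.801. The labels give no pairing, and across genes the deviations of same-numbered libraries from their group means correlated at r = -0.12 (number 1) and -0.25 (number 2). The deviations of the 2 DAF-TM libraries mirror each other, so these values are not independent and cannot decide whether libraries were paired. The stricter element spelling and the exon lengths are given with the results above. Only 2 DAF-TM libraries and 3 residual degrees of freedom limit what could be detected, and the least abundant members have the widest intervals.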
